A study of Mus musculus with 4 samples.

Results

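Platelet-derived growth factor (PDGF) signalling was examined in the calvaria, the vault of the skull, of E14.5 mouse embryos, through the 4 ligand genes Pdgfa, Pdgfb, Pdgfc and Pdgfd and the 2 receptor genes Pdgfra and Pdgfrb. These 6 members were taken by symbol from the 55487 Ensembl gene IDs of the count table, and all 6 passed the filter on low counts, which left 20947 genes. There were 4 poly(A) RNA libraries, 2 of frontal bone and 2 in which parietal bone was combined with interparietal bone (parietal-interparietal below). The labels give no genotype, treatment, strain or sex, nor the litters or how many embryos went into a library, and leave unsaid whether libraries of the same group stem from different embryos. The spread behind each p-value is therefore that between these samples alone and may be technical. Because parietal and interparietal bone share their libraries, no value can be assigned to either of them alone.

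PDGF ligands are secreted dimers that bring together a pair of receptor tyrosine kinases at the cell surface, which then phosphorylate each other and recruit adaptors, phosphoinositide 3-kinase, phospholipase C gamma and the RAS-MAP kinase cascade. PDGF-A and PDGF-C act mainly through the alpha receptor, PDGF-B through both receptors and PDGF-D mainly through the beta receptor. In the head, the alpha receptor is carried by neural crest derived and mesodermal mesenchyme and is needed for closure of the face and for normal growth of the skull, while the beta receptor is best known for the pericytes and smooth muscle of vessels, which are recruited by PDGF-B from endothelium.

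Total counts were between 24069177 and 35555013 per library. The pairs of a group differed by more than sampling noise, with a variance over genes of 23.9 times that of binomial sampling in the frontal pair and 3.35 times in the parietal-interparietal pair, and each library was entered as 1 sample. The libraries held RNA of mesenchyme, with Col1a1 between 967 and 1503 CPM (counts scaled to a common library size). The osteoblast transcription factor Runx2 was between 10.7 and 16.3 CPM. There was also RNA of neurons, muscle, epidermis and meninges, whose values stand below. In bulk RNA, fewer cells of a type and less RNA per cell cannot be told apart.

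The alpha receptor and its main ligand were both lower in the frontal libraries by similar amounts, while no difference was called for the other 4 members. Pdgfra was 1.73-fold lower and Pdgfa 1.68-fold lower. Over all genes, 12.7% of those tested were called at an adjusted p under 0.05 (edgeR's quasi-likelihood test, Benjamini-Hochberg adjustment) and 6.44% were called lower in frontal libraries, against 2 of the 6 members. This count over all genes, 2657, rose to 5373 without frontal library 1 and 7279 without frontal library 2 and fell to 882 and 865 without parietal-interparietal library 1 or 2. In each of these fits 1 group is a lone library that is assumed to vary like the other group, so the spread is that of the remaining pair alone, the tighter parietal-interparietal pair in the first 2 fits and the wider frontal pair in the last 2. Pdgfra and Pdgfa passed the threshold in all 4, which under that assumption is no replicate check of the lone library.

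The stretches upstream of the start sites of Pdgfa and Pdgfra, the members that fell together, are shown beside that of Pdgfc, a ligand of the same receptor that was not called. They come from RefSeq promoter windows on GRCm38.p6, which matched 4 of the 6 members. None of their bases lies in an exon that GENCODE annotates for the gene itself. The Pdgfa stretch was cut to 157 bases where such an exon began, and lies within the annotated span of the gene. Pdgfa is shown on the minus strand (chr5:138995038-138995194), Pdgfra on the plus strand (chr5:75152001-75152250) and Pdgfc on the plus strand (chr3:81036166-81036415). Capitals mark a match to the E-box CANNTG, a motif bound by basic helix-loop-helix factors.
Pdgfa: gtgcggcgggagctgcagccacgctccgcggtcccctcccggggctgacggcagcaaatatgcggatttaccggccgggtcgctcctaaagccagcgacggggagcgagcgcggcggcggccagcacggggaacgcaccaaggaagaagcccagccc
Pdgfra: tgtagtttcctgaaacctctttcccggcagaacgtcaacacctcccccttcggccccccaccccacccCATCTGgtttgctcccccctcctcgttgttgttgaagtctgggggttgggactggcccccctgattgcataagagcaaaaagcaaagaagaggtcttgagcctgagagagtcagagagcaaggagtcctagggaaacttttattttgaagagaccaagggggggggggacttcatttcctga
Pdgfc: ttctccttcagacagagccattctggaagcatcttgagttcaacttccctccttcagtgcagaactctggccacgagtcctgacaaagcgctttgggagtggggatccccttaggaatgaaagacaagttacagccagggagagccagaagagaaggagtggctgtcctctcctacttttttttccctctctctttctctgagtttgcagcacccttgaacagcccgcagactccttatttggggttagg
G and C made up 72.0% of the Pdgfa stretch, 54.4% of that of Pdgfra and 50.8% of that of Pdgfc. On both strands, the E-box was found 1 time, in Pdgfra, while 66.2% of 32851 promoter windows of that length held it. The GC box GGGCGG, held by 32.7% of windows of 250 bases, and the TATA box TATAAA, held by 12.4%, were in none of the 3 stretches. In windows of the 157 bases of the Pdgfa stretch, the E-box was held by 50.8%, the GC box by 17.6% and the TATA box by 7.55%. The 3 motifs do not overlap each other in these stretches.

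Pdgfa encodes PDGF-A, made by epithelia, muscle and neurons for neighbouring mesenchyme (ENSMUSG00000025856, chromosome 5, 138976014 to 138997370, minus strand). It had 1141 and 1598 counts in the frontal pair (library 1, then library 2, as throughout) against 1728 and 1969 counts in the parietal-interparietal pair, which gave 39.7 and 45.4 CPM against 70.7 and 72.6 CPM. Both frontal libraries lay far below both parietal-interparietal libraries, although they were sequenced more deeply. The log2 fold change, frontal minus parietal-interparietal, was −0.75 ± 0.10 (SE; 95% interval −0.97 to −0.53; edgeR adjusted p = 0.0011). An antisense RNA gene, 6330403L08Rik, starts 19 bases upstream of a Pdgfa start site on the other strand, within the stretch shown above, and covers 26.1% of the annotated exon bases of Pdgfa, all in exons farther upstream than that start site. Whether the counting used strand is not given, so reads of these bases cannot be told apart. The antisense gene had 238 and 315 counts in frontal and 216 and 326 in parietal-interparietal libraries, 17% of the count of Pdgfa over the 4 libraries, and was not called (log2 fold change −0.28, adjusted p = 0.39).

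Pdgfc encodes PDGF-C, a ligand with a CUB domain that must be cut off before it binds the alpha receptor (ENSMUSG00000028019, chromosome 3, 81036416 to 81214040). It stood at 20.8 and 24.2 CPM in frontal and 20.8 and 17.6 CPM in parietal-interparietal libraries, from 597, 852, 509 and 478 counts. The groups overlapped, since frontal library 1 lay just under parietal-interparietal library 1. It was the only ligand with a log2 fold change above 0, at 0.23 ± 0.14 (95% interval −0.08 to 0.53, edgeR adjusted p = 0.327). Without frontal library 1, the lower of the frontal pair, it passed the threshold at 0.34 (adjusted p = 0.0322), but there the spread came from the parietal-interparietal pair alone, and no difference in Pdgfc is read from it.

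Pdgfb, the endothelial ligand that draws pericytes to vessels (ENSMUSG00000000489, chromosome 15, 79995874 to 80014977), was at 9.15 and 7.90 CPM in frontal and 9.70 and 10.7 CPM in parietal-interparietal libraries. The groups did not overlap, but the gap between them was smaller than the gap within either pair. Its log2 fold change was −0.26 ± 0.17 (95% interval −0.64 to 0.12, edgeR adjusted p = 0.368), an interval that allows from 1.56-fold lower to 1.09-fold higher. Pdgfd encodes PDGF-D, the other ligand with a CUB domain (ENSMUSG00000032006, chromosome 9, 6168584 to 6378850). It was the lowest member, at 3.79 and 2.95 CPM in frontal and 3.03 and 4.68 CPM in parietal-interparietal libraries, from between 74 and 127 counts. The groups overlapped, and the 95% interval of the log2 fold change, −0.88 to 0.48 around −0.20, was the widest of the 6 (adjusted p = 0.735). Without parietal-interparietal library 2, which held the highest value, it turned to 0.15.

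Pdgfra encodes the alpha receptor (ENSMUSG00000029231, chromosome 5, 75152292 to 75198215). It had 6728 and 8879 counts in frontal and 10394 and 11254 in parietal-interparietal libraries, and stood at 233.9 and 252.1 CPM against 425.3 and 414.7 CPM. The gap between the groups was many times the gap within either pair. The log2 fold change was −0.79 ± 0.08 (95% interval −0.96 to −0.62, edgeR adjusted p = 0.000187), and 7.67% of the genes tested had a lower log2 fold change, as had 8.38% for Pdgfa. Pdgfrb encodes the beta receptor (ENSMUSG00000024620, chromosome 18, 61045150 to 61085061). It was at 63.2 and 58.6 CPM in frontal and 68.8 and 66.1 CPM in parietal-interparietal libraries, from between 1682 and 2062 counts. The groups did not overlap, with a log2 fold change of −0.15 ± 0.09 (95% interval −0.35 to 0.05, edgeR adjusted p = 0.337), so that a fall larger than 1.28-fold lay outside the interval. Without frontal library 1 it passed the threshold at −0.20 (adjusted p = 0.0254), again with the spread of the parietal-interparietal pair alone, and no fall in Pdgfrb is read from it. Pdgfa, Pdgfb, Pdgfra and Pdgfrb, 4 of the 6 members, had both frontal libraries below both parietal-interparietal libraries, as had 28.4% of all genes tested, and none had both above, as had 28.9%. In either direction 57.3% of all genes tested did not overlap.

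**Figure D1:**
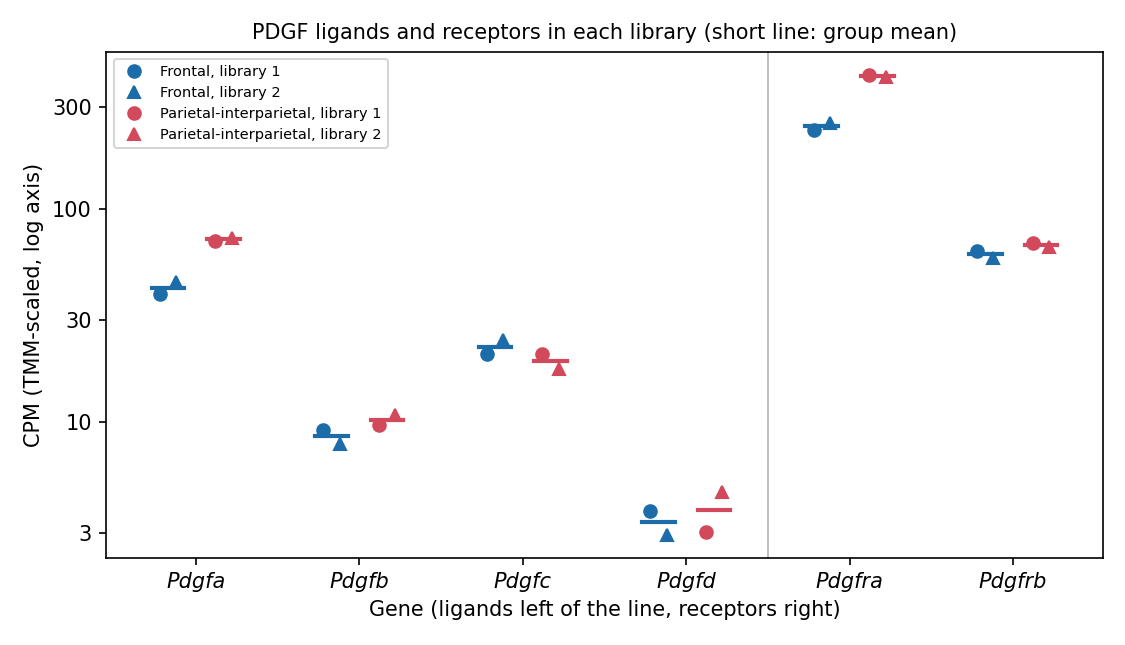
CPM of each PDGF ligand and receptor on a log axis, 1 point per library (circle: library 1, triangle: library 2; blue: frontal, red: parietal-interparietal) with a short line at the mean of the 2 libraries of a group. Pdgfra and Pdgfa show a wide gap between the groups, with Pdgfra at 233.9 and 252.1 CPM in frontal and 425.3 and 414.7 CPM in parietal-interparietal libraries, while Pdgfc and Pdgfd overlap.

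Levels of different genes were compared per length, as counts per kilobase of annotated exon scaled to a fixed sum within a library (TPM). The order was the same in both groups, with Pdgfra first, then Pdgfa, Pdgfrb, Pdgfc, Pdgfb and Pdgfd. In frontal libraries Pdgfra was at 50.0 ± 6.04 TPM, Pdgfa at 28.2 ± 4.57 TPM and Pdgfrb at 22.8 ± 0.326 TPM (mean ± SD, n = 2). In parietal-interparietal libraries the same genes were at 101.5 ± 1.57, 55.6 ± 1.15 and 29.8 ± 0.790 TPM. The ligands below them were at 9.13 ± 1.60 and 9.14 ± 1.06 TPM for Pdgfc, 4.20 ± 0.151 and 5.93 ± 0.421 TPM for Pdgfb, and 2.19 ± 0.237 and 2.96 ± 0.904 TPM for Pdgfd, in frontal and parietal-interparietal libraries in turn. No neighbours in this order overlapped in either group, and the closest, Pdgfa and Pdgfrb in frontal libraries, stood at 24.9 and 31.4 TPM against 22.6 and 23.1 TPM. With the longest transcript as the length the order was again the same. TPM was used to order genes within a library, and its means are not for comparing the groups. It was not corrected for the share of counts at ribosomal RNA and mitochondrial genes. That share was 11.6% and 10.1% in frontal and 7.64% and 7.52% in parietal-interparietal libraries.

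Pdgfa made up most ligand transcripts in every library, but less so in the frontal bone. Its share of the ligand TPM was 63.0% and 65.7% in frontal and 75.4% and 75.6% in parietal-interparietal libraries. Pdgfc took a larger part in frontal libraries, 20.2% and 21.5% against 13.6% and 11.3%. Shares are parts of a fixed whole, so a lower Pdgfa by itself raises the share of Pdgfc. Pdgfc itself was not called (edgeR adjusted p = 0.327). Pdgfb and Pdgfd together filled the rest, with Pdgfb at 9.73% ± 1.63 and 8.05% ± 0.417 and Pdgfd at 5.09% ± 1.22 and 4.01% ± 1.15 (mean ± SD, n = 2, frontal and parietal-interparietal). Of the receptor transcripts, Pdgfra made up 66.9% and 70.2% in frontal and 77.2% and 77.4% in parietal-interparietal libraries.

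**Figure D2:**
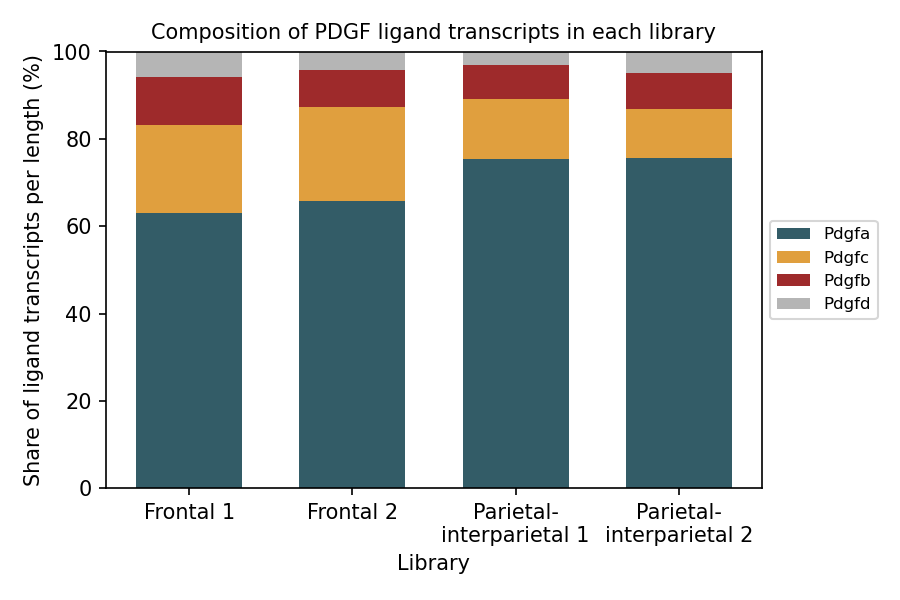
Stacked bars of the share of each ligand gene in the summed ligand transcripts per length (%, from counts per kilobase of exon), 1 bar per library. Pdgfa is the largest part of each bar, at 63.0% and 65.7% in frontal and 75.4% and 75.6% in parietal-interparietal libraries, and Pdgfc is the larger of the other parts in all 4.

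Ratios of ligand to receptor within a library do not depend on how libraries are scaled. Such ratios compare RNA over all cells of a library, not protein. They are given as a description, since 2 libraries against 2 cannot give a p below 0.33 in an exact permutation test. Pdgfa stood at 0.545 and 0.578 transcripts per length for each of Pdgfra in frontal and at 0.534 and 0.562 in parietal-interparietal libraries. The groups overlapped, and their mean log2 ratios differed by 0.03, less than the gap of 0.09 between the frontal libraries. Pdgfc stood at 0.175 and 0.189 per Pdgfra in frontal and 0.0965 and 0.0837 in parietal-interparietal libraries, a ratio 2.02-fold higher in frontal (log2 difference 1.02). That difference exceeded the largest gap within a group, 0.21, and combined the lower Pdgfra, at −0.79, with the log2 fold change of 0.23 in Pdgfc. With Pdgfa and Pdgfc summed, the ratio to Pdgfra was 0.720 and 0.767 in frontal and 0.631 and 0.646 in parietal-interparietal libraries.

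For the beta receptor the ratios overlapped between the groups. Pdgfb stood at 0.191 and 0.177 per Pdgfrb in frontal and 0.186 and 0.213 in parietal-interparietal libraries. Pdgfd stood at 0.104 and 0.0876 against 0.0764 and 0.123, the parietal-interparietal libraries lying on either side of the frontal pair. Over all members, ligand to receptor was 0.579 and 0.618 in frontal and 0.546 and 0.576 in parietal-interparietal libraries. The log2 difference of 0.09 was about as large as the gap within the frontal pair. A pair of further ratios was formed after the values had been seen. Pdgfrb to Pdgfra was 0.494 and 0.425 in frontal against 0.296 and 0.292 in parietal-interparietal libraries, and Pdgfc to Pdgfa was 0.321 and 0.327 against 0.181 and 0.149.

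**Figure D3:**
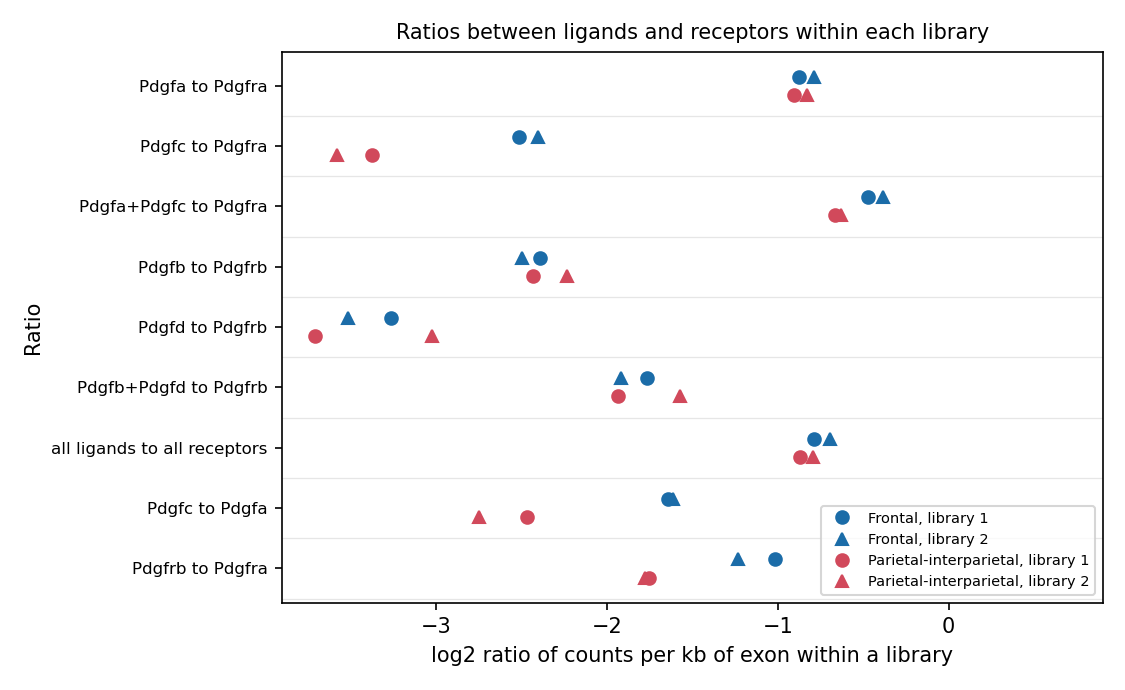
log2 ratio of counts per kilobase of exon between members within each library (circle: library 1, triangle: library 2; blue: frontal, red: parietal-interparietal). Pdgfa to Pdgfra overlaps between the groups, with a difference of 0.03, while Pdgfc to Pdgfra lies 1.02 higher in frontal libraries.

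The other genes of the pathway were mostly not called. Of 52 tested genes that process or bind the ligands, assist the receptors, carry or damp the signal, or respond to it, 2 were higher, 4 lower and 46 not called, with a median log2 fold change of −0.09 against 0.006 over all genes tested. The background was 6.25% of all genes called higher and 6.44% lower. None of the 7 genes of ligand processing and binding was called, among them Furin, which cleaves the precursors of PDGF-A and PDGF-B, and Plat, the tissue plasminogen activator that cuts PDGF-C, at a log2 fold change of −0.30 (adjusted p = 0.158). None of the 4 co-receptors and 9 negative regulators was called. Pathway counts were 7, 9, 0 and 0 higher and 16, 16, 3 and 3 lower when each library was left out in turn, the frontal pair first.

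Among 27 signal transducers 2 were higher and 1 lower, and genes of the MAP kinase cascade were called in both directions. Mapk3, which encodes the kinase ERK1 at the end of the cascade, was at 110.5 and 117.9 CPM in frontal and 176 and 170.1 CPM in parietal-interparietal libraries, 1.52-fold lower (log2 fold change −0.60 ± 0.08, edgeR adjusted p = 0.00122). Map2k2, which encodes the kinase MEK2 just above ERK1, was at 72.0 and 75.7 against 58.8 and 60.8 CPM, 1.24-fold higher (adjusted p = 0.049). Map2k2 lost its call without parietal-interparietal library 1 (adjusted p = 0.504), without library 2 (0.411) and when that pair was summed (0.51). It was also not called when scaled by total count alone (0.0999), in DESeq2 (0.0559) or with ribosomal and mitochondrial genes left out (0.0503).

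Of 5 tested response genes, which PDGF induces in cultured fibroblasts and which many other signals induce too, 3 were lower and 2 not called. Junb, an AP-1 subunit, was at 10.9 and 9.51 CPM in frontal and 21.0 and 20.3 CPM in parietal-interparietal libraries, 2.02-fold lower (log2 fold change −1.01 ± 0.14, edgeR adjusted p = 0.00139). Fos, its AP-1 partner, was at 19.96 and 16.4 against 30.6 and 26.8 CPM, 1.58-fold lower (adjusted p = 0.0114), and Egr1, a zinc finger factor, was at 57.9 and 50.7 against 73.7 and 84.6 CPM, 1.46-fold lower (adjusted p = 0.00867). The groups did not overlap for any of these 3. The call of Fos was lost without parietal-interparietal library 1 (adjusted p = 0.152), that of Egr1 without library 2 (0.187), and both with the pair summed (0.0752 and 0.0809). Myc and Srf were not called, and Fosl1 did not pass the filter.

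Of 15 tested genes of the closest relatives of the family, 0 were higher and 2 lower, with log2 fold changes between −0.51 and 0.15. None of the 8 VEGF family ligands and receptors was called. Of 7 tested genes for other receptors of the same class and their ligands, Kit, the receptor of stem cell factor, was 1.27-fold lower (42.5 and 46.6 against 58.5 and 54.8 CPM, adjusted p = 0.0444) and Csf1, the macrophage growth factor, 1.34-fold lower (19.1 and 18.7 against 23.9 and 26.8 CPM, adjusted p = 0.0451, edgeR). Both calls were lost without either parietal-interparietal library (adjusted p between 0.191 and 0.473) and with the pair summed (0.4 and 0.323), and that of Csf1 in DESeq2 (0.0597). Without each library in turn, 6, 7, 0 and 0 of the 15 were called lower, and 5 were when libraries were scaled by total count alone. Pdgfrl, which encodes a receptor-like protein without a kinase domain, was at 27.4 and 26.6 against 30.7 and 27.9 CPM (adjusted p = 0.555).

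**Figure D4:**
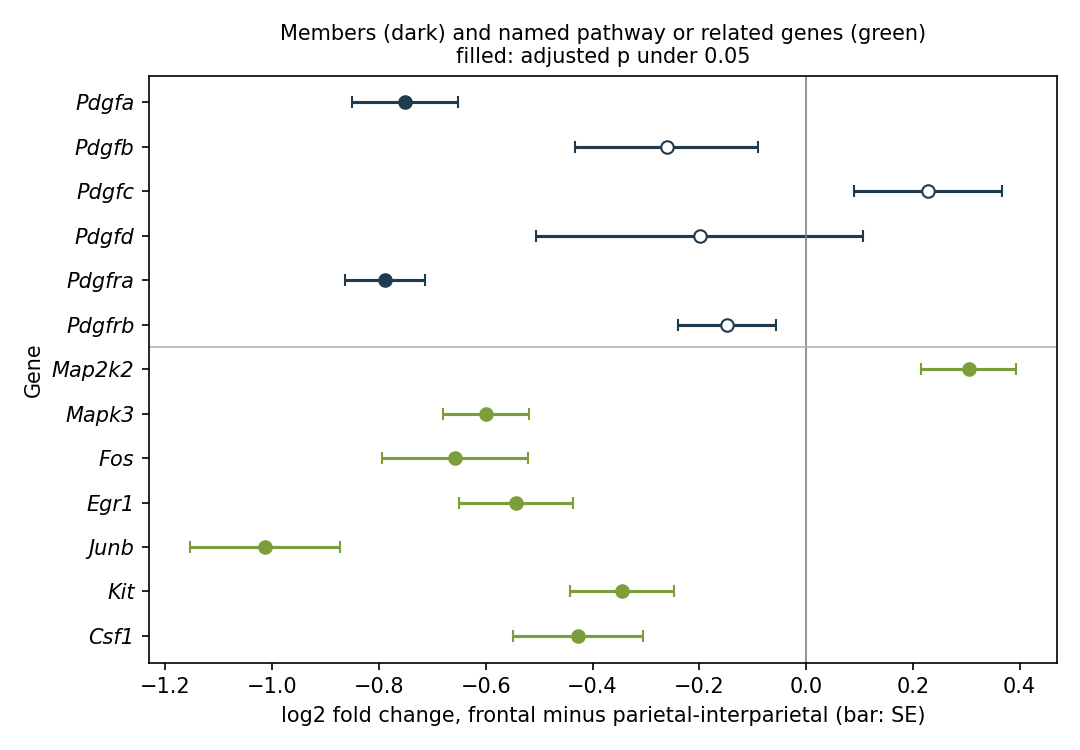
log2 fold change, frontal minus parietal-interparietal, with its SE, for the 6 members (dark) and for the called pathway and related genes named in the text (green); filled points were called. Pdgfra at −0.79 and Pdgfa at −0.75 lie apart from the other 4 members, whose values run from −0.26 to 0.23.

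Marker genes of some cell types that carry or make these proteins differed between the libraries too. Over all genes tested, 6.44% were called lower and 6.25% higher in frontal libraries. Of 12 mesenchyme and fibroblast genes, a main site of Pdgfra, 6 were lower and 0 higher in frontal libraries (median log2 fold change −0.24), and their summed level was 5924 and 6063 CPM against 7625 and 7634 CPM. Col1a1 and Col1a2, the type I collagen chains, were 1.53-fold and 1.40-fold lower, and Fn1, fibronectin, 1.28-fold lower. The 6 mesenchyme genes not called ran from −0.22 (Osr1) to 0.20 (Lum), with Dcn at 0.04 and Postn at −0.04. Of 10 markers of the meninges, membranes around the brain whose fibroblasts carry both receptors, 7 were lower and 0 higher (median −0.67), with sums of 454 and 450 against 834 and 824 CPM. Ptgds, Cldn11 and Slc6a13 of that list were 2.77-fold, 2.31-fold and 2.25-fold lower. At −0.79, Pdgfra lay below every mesenchyme gene listed (lowest −0.61) and within the range of the meninges list, −1.47 to −0.22. The part of these cells in the difference of Pdgfra was not tested. Without frontal library 1 or 2 or parietal-interparietal library 1 or 2, 8, 9, 2 and 2 mesenchyme genes and 9, 9, 4 and 4 meninges genes were called lower.

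Osteoblasts are mesenchymal cells too. Of 9 osteoblast genes tested, 2 were higher, 0 lower and 7 not called, with Ibsp (bone sialoprotein) 2.13-fold higher and a summed level of 153.5 and 173.1 CPM in frontal and 104.5 and 100.3 CPM in parietal-interparietal libraries. Sp7, the osteoblast factor osterix, and Phex, an endopeptidase of bone cells, had log2 fold changes of −0.34 and −0.22 and were not called (adjusted p = 0.171 and 0.724). Mepe, a marker of late osteoblasts and osteocytes, was at 0 in all 4 libraries. Without the same libraries in turn 4, 4, 1 and 1 were called higher, and 1 was called lower without frontal library 2. Oligodendrocyte progenitors, which carry Pdgfra in the brain, had 2 of 6 markers higher and 2 lower, with sums of 84.3 and 90.4 against 81.9 CPM in both parietal-interparietal libraries. The higher genes were Ptprz1, at a log2 fold change of 0.58, and Olig2, the lineage factor of these cells. Olig2 was at 4.31 and 5.06 against 2.21 and 1.62 CPM. The lower genes were Cnp, at −0.41 (edgeR adjusted p = 0.0459), and Nkx2-2, at −3.44 (adjusted p = 0.0331). Nkx2-2 was at 0.0695 and 0.0568 against 0.818 and 0.626 CPM, under a count of 3 in both frontal libraries. Olig1 and Sox10 were not called, at 1.71 and −0.37. The list thus gave no single direction. Without parietal-interparietal library 2 no gene of this list was called, and without library 1 the 2 higher calls stood alone. DESeq2 called 2 of the list higher and 0 lower, and with counts halved 1 was called lower.

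Of the sources of PDGF-A, skeletal muscle had 8 of 9 tested markers lower in frontal libraries and 0 higher, with sums of 1347 and 1255 against 1742 and 1716 CPM. The myosin Myh3, the myogenic factor Myod1 and the troponin Tnnt3 were 1.47-fold, 1.59-fold and 1.46-fold lower. Of 12 neuron and neural progenitor markers 6 were higher and 2 lower, and the sums were 1294 and 1235 against 1128 and 1139 CPM. The forebrain factors Neurod6, Neurod2 and Pax6 were 66.6-fold, 34.5-fold and 6.12-fold higher, while Nefm and Stmn2 were 2.26-fold and 1.26-fold lower. Tubb3, Dcx, Nes and Fabp7 were not called, with log2 fold changes of 0.07, 0.19, 0.09 and −0.02. Of 10 epidermis markers 2 were lower, Cdh1 (E-cadherin) 1.48-fold and Krt10 1.53-fold, and 0 higher, with sums of 956 and 899 against 1041 and 1024 CPM. Krt14, a keratin of the basal layer, had a log2 fold change of 0.30 that was not called (adjusted p = 0.06). The part of these tissues in the difference of Pdgfa was not tested. Without each library in turn, 9, 9, 2 and 3 muscle genes and 6, 5, 0 and 1 epidermis genes were called lower, and 7, 9, 4 and 4 neural genes higher. In epidermis 1 gene was called higher without either frontal library, with no filter and with a replicate block, and 4 were called lower when scaled by total count alone.

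Vessel genes set the beta receptor in context. Of 11 tested mural cell markers 5 were lower and 0 higher (median −0.42), with sums of 488 and 449 against 603 and 608 CPM, Mcam, Vtn and Des being 1.65-fold, 1.60-fold and 1.42-fold lower. Des is also a muscle gene. The 6 mural genes not called ran from −0.76 (Tagln) to 0.14 (Myh11), with Acta2 at −0.06 and Abcc9 at 0.02. Pdgfrb, at −0.15, lay above the median of the mural list, and the part of mural cells in its level was not tested. Of 10 endothelial markers, the cells that make PDGF-B, 1 was lower, Cdh5 (VE-cadherin, 1.54-fold), and 1 higher, Cldn5 (1.33-fold), with sums of 474 and 436 against 524 and 515 CPM. Of 6 tested platelet and megakaryocyte genes, cells that store PDGF, 1 was lower (Pf4, platelet factor 4, 1.42-fold). Of 9 macrophage genes 1 was lower (C1qc, 1.32-fold), and of 8 cartilage genes 2 were lower, Col2a1 1.35-fold and Acan 1.76-fold. Over all genes tested, 6.44% were called lower and 6.25% higher. Nothing about endothelial, platelet or macrophage cells is read from lists this short with 1 gene called lower. Without each library in turn, 7, 5, 2 and 2 mural genes, 2, 3, 1 and 1 endothelial genes, 2, 1, 0 and 0 platelet genes, 4, 4, 0 and 0 macrophage genes and 3, 3, 1 and 1 cartilage genes were called lower, and 2, 2, 0 and 0 endothelial genes higher. Without frontal library 2, 1 macrophage gene was called higher. Scaled by total count alone, 4 macrophage genes were called lower, and 2 with no filter or with a replicate block.

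**Figure D5:**
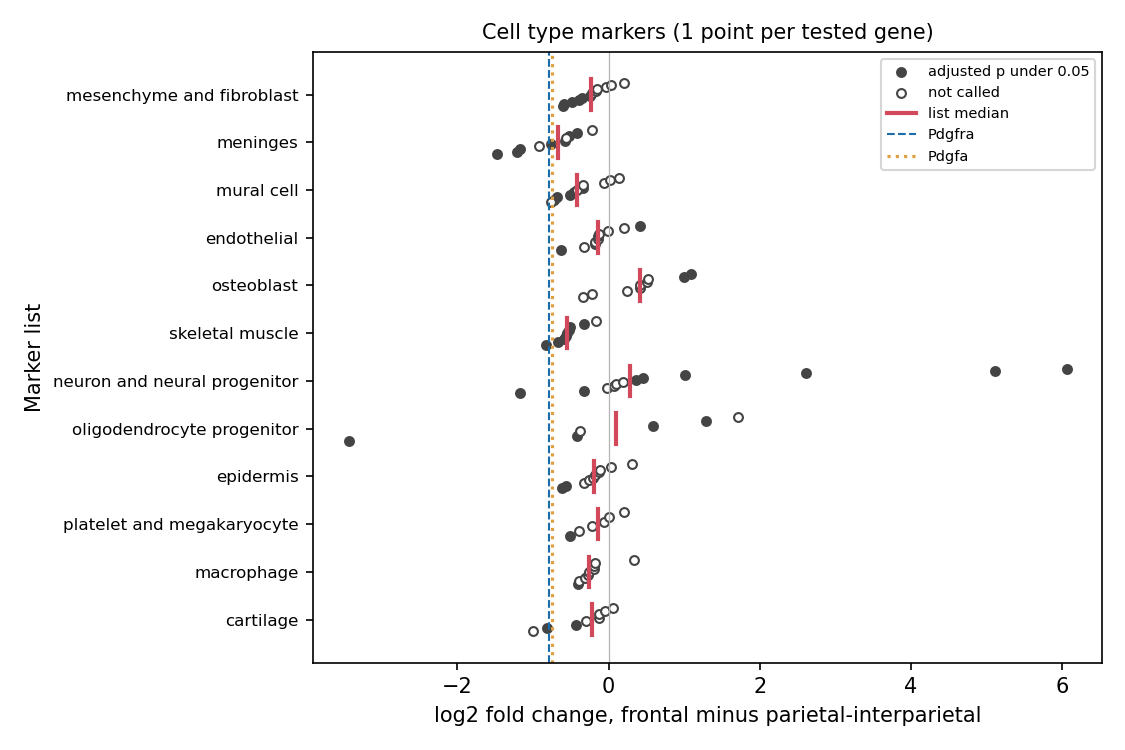
log2 fold change, frontal minus parietal-interparietal, of each tested marker gene of 12 cell type lists (filled: adjusted p under 0.05; red bar: list median), with broken lines at Pdgfra (−0.79) and Pdgfa (−0.75). The medians of the meninges, skeletal muscle and mural lists, at −0.67, −0.55 and −0.42, lie nearest to these lines, and those of the osteoblast, neural and oligodendrocyte progenitor lists lie above 0.

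Genes with the profile most like that of a called member were found over the 4 libraries among 10060 genes of at least 10 CPM, by the largest distance in any library between log2 CPM values centred on each gene's mean. For Pdgfra they were Fermt2 (the integrin-binding protein kindlin-2), Ccn4 (a secreted matrix-associated protein) and Cacna1g (a T-type calcium channel), with largest distances of 0.03 each. Fermt2 was at 112.3 and 124.4 against 204.6 and 199.8 CPM. For Pdgfa they were Laptm5 (a lysosomal membrane protein of blood cells), Snx27 (an endosomal sorting nexin) and Pik3cd (a catalytic subunit of phosphoinositide 3-kinase), with distances of 0.02, 0.02 and 0.03. Snx27 was at 63.3 and 72.8 against 115.5 and 117 CPM. Pdgfa itself ranked 16th among the genes nearest to Pdgfra, at a distance of 0.06. With 4 libraries in 2 groups such likeness rests mainly on the size of the group difference.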

How the data were processed

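The deposited values were raw counts, 1 whole number per Ensembl gene and library. The tools named for these counts per the submitters' processing notes are featureCounts 2.0.1, HISAT2 2.1.0 and Trim Galore 0.6.7, with GRCm38 as the build. Settings for strand and multiple matches, and the annotation, were not given in the sources used here. Symbols and positions came from GENCODE M21 (55227 IDs matched, 260 did not).

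Counts were filtered (filterByExpr, minimum count 10), TMM-scaled and compared by the two-sided quasi-likelihood test of edgeR 4.0.16 in R 4.3.3, frontal minus parietal-interparietal, group as the only term. Calls had a Benjamini-Hochberg adjusted p under 0.05 over all genes tested. SE is the absolute log2 fold change over the square root of F. A count of 3 equals 0.0852 to 0.123 CPM. On simulated data (20229 genes, this comparison) 16.4%, 67.2% and 90.9% of genes with an absolute log2 fold change of 0.5, 1 and 2 were recovered, and 3 unchanged genes were called.

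Members and the other 19 lists (182 genes) were chosen with earlier results of these data known. Named genes were the members, called pathway and related genes, up to 3 markers of each list by smallest p, and the 3 genes most like each called member; other genes named in the text were chosen after their values were seen. Alternatives were DESeq2 1.42.0, other scalings, no filter, halved counts, the parietal-interparietal pair summed, ribosomal and mitochondrial genes left out, a replicate block and each library left out. Some results that the naming rule gives are not reported here. Figures used matplotlib 3.10.9.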

Additional observations from a re-analysis of the deposited data

How the results depend on the processing

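The calls of Pdgfra and Pdgfa were made in all 12 alternatives run, with log2 fold changes from −0.85 to −0.73 and from −0.86 to −0.66 and highest adjusted p of 0.0024 and 0.0128, both with the parietal-interparietal pair summed. In that alternative and in the 4 that leave out a library, 1 group is a lone library assumed to vary like the other group. With 1 library left out, Pdgfc ran from 0.10 to 0.35, Pdgfd from −0.48 to 0.15 and Pdgfrb from −0.20 to −0.10. Counts over all genes then ran from 865 to 7279 (423 to 3483 higher, 442 to 3796 lower), and pathway counts from 0 to 9 higher and 3 to 16 lower. With the pair summed, 791 genes were called (379 higher, 412 lower), with 0 pathway genes higher and 2 lower, and with 2 mesenchyme, 4 meninges, 2 mural and 3 muscle genes lower. In DESeq2, without ribosomal and mitochondrial genes, and scaled by total count alone, 1 pathway gene was called higher. Under that last scaling 38.0% of calls were higher, against 49.3%. Without exon lengths, the log2 difference in the ratio of Pdgfa and Pdgfc to Pdgfra was 0.30 against 0.22, and that of all ligands to all receptors 0.23 against 0.09, as the sums then weigh longer genes more. The libraries share only a replicate number, with a correlation of 0.02 between same-numbered deviations. With a replicate block 3306 genes were called, and Pdgfra and Pdgfa were at −0.79 and −0.75, with no member gaining or losing a call. Even numbers made up 68.3% to 74.4% of counts from 1 to 20, and with counts halved no member changed its call. Pdgfd rests on the fewest counts, 74 to 127, and its SE was 0.31 both as deposited and with counts halved.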
